A study of Homo sapiens with 6 samples.

Results

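The diacylglycerol kinase (DGK) mRNAs were examined in RNA immunoprecipitation sequencing (RIP-seq) of WaGa cells, an established Merkel cell carcinoma (MCC) line that carries the Merkel cell polyomavirus. The members were the 9 genes *DGKA*, *DGKB*, *DGKD*, *DGKE*, *DGKG*, *DGKH*, *DGKI*, *DGKQ* and *DGKZ*, picked by gene name from the 60655 rows of the count table. The family was chosen with values of this comparison known, so all values that set IGF2BP3 IP against IgG IP for the members are given as a description. Calls of members are only counted, beside the share of all genes called, and support nothing. RIP-seq reads the RNA that an antibody pulls out of lysed cells. Here 3 libraries came from an antibody to IGF2BP3, an RNA-binding protein that the sample labels call IMP3, and 3 from IgG, the negative control. All 6 libraries came from untreated cells of WT genotype, so both groups share the same cells and differ only in the antibody. WaGa is 1 cell line from 1 tumor, and both groups report RNA recovered on beads, not the level of the RNA in the cell. The comparison addresses which RNAs come down with IGF2BP3.

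DGKs phosphorylate diacylglycerol to phosphatidic acid. Diacylglycerol is released from phosphoinositides by phospholipase C and activates proteins with a C1 domain, such as protein kinase C and the RasGRP exchange factors. The kinases thereby end a diacylglycerol signal and start a phosphatidic acid signal. The mammalian isozymes share a catalytic domain and C1 domains and are grouped by their other domains. Type I (DGKA, DGKB, DGKG) carries calcium-binding EF hands, and type II (DGKD, DGKH and DGKK) carries a pleckstrin homology domain. Type III is DGKE alone, which prefers diacylglycerol with an arachidonoyl chain. Type IV (DGKZ, DGKI) carries a MARCKS-like region and ankyrin repeats, and type V is DGKQ.

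The libraries held 9758759 to 14886414 counts on genes. The replicate 1 libraries stood apart in both groups, with a chi-square per degree of freedom of 16.6 to 20.6 against the other libraries of their group, where replicates 2 and 3 differed by 2.15 (IgG IP) and 3.08 (IGF2BP3 IP). All 8 MCC markers examined, among them *KRT20*, *ATOH1*, *SOX2* and *INSM1*, were at 1 TPM (a unit per gene length and library) or more in every library. Their summed level was 1601 to 2502 TPM in the IgG IP and 1890 to 2567 TPM in the IGF2BP3 IP. Of 10 markers of fibroblasts, blood, endothelium, melanocytes and keratinocytes, *DCN* reached 1 TPM in every library and 4 (*PTPRC*, *CD3E*, *MLANA* and *KRT14*) were at 0 in all. Their sum was 36.0 to 54.2 TPM in the IgG IP and 29.4 to 47.7 TPM in the IGF2BP3 IP. Levels below are CPM (counts scaled to the library total) after TMM normalization unless TPM is named.

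*DGKZ* (ENSG00000149091.15), at positions 46332905 to 46380554 of chromosome 11 (GRCh38, plus strand), encodes the type IV kinase zeta. Its normalized CPM were 14.2, 14.4 and 14.7 in the IgG IP (replicates 1, 2 and 3), against 25.9, 21.2 and 22.03 in the IGF2BP3 IP. The IgG IP libraries lay within a narrow band, and every IGF2BP3 IP library lay above it. The means were 14.4 ± 0.241 (SD, n = 3) and 23.1 ± 2.52 (SD, n = 3), from 131 to 309 counts per library. The fold was 1.60, a log2 fold change of 0.68 (standard error 0.13). Within same-numbered pairs the log2 differences were 0.86, 0.55 and 0.58, all in the same direction. In TPM the order was the same, with 3.30, 5.66 and 4.85 in the IgG IP, against 7.86, 8.31 and 8.39 in the IGF2BP3 IP. The processed pseudogene *DGKZP1* held 0 to 3 counts per library.

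*DGKI* (ENSG00000157680.16), at positions 137381037 to 137847092 of chromosome 7 (minus strand), encodes kinase iota, the other type IV enzyme. Its normalized CPM were 12.0, 9.31 and 9.03 in the IgG IP, against 14.2, 11.8 and 10.3 in the IGF2BP3 IP. The groups overlapped, with IgG IP replicate 1 above both IGF2BP3 IP replicates 2 and 3. The log2 fold change was 0.26 (standard error 0.18). The ratio of *DGKZ* to *DGKI* counts, which needs no scaling between libraries, was 1.18, 1.55 and 1.63 in the IgG IP, against 1.83, 1.80 and 2.13 in the IGF2BP3 IP. It was higher in every IGF2BP3 IP library than in any IgG IP library, although a ratio of counts in 1 library says nothing about which of the genes moved. In TPM *DGKI* did not overlap between groups, at 1.07 to 1.71 against 1.85 to 2.53.

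**Figure D1:**
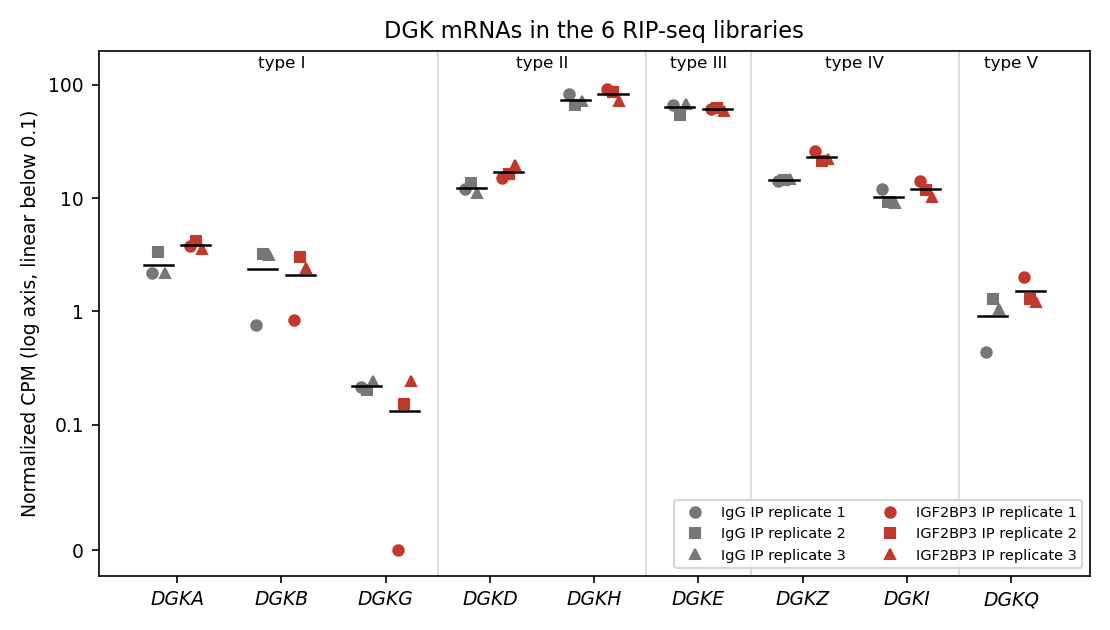
Normalized CPM of the 9 DGK genes (vertical axis, logarithmic, linear below 0.1) in each of the 6 libraries, ordered by isozyme type. Points are single libraries, marker shapes are replicate numbers and black lines are group means. *DGKH* and *DGKE* lie highest in CPM, *DGKZ* separates the groups with a mean of 14.4 against 23.1, and *DGKB* is low in both replicate 1 libraries.

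Among the type II genes, *DGKD* (ENSG00000077044.11), at positions 233354494 to 233472104 of chromosome 2 (plus strand), encodes kinase delta. Its normalized CPM were 12.0, 13.6 and 11.1 in the IgG IP, against 15.1, 16.2 and 19.5 in the IGF2BP3 IP. No IGF2BP3 IP library reached down into the IgG IP range, and the log2 fold change was 0.46 (standard error 0.15). The within-pair differences of *DGKD* were 0.32, 0.25 and 0.80, so replicate 3 carried the largest. In TPM its groups overlapped, since IgG IP replicate 2 (3.40) lay above IGF2BP3 IP replicate 1 (2.99). *DGKH* (ENSG00000102780.17), at positions 42040036 to 42256578 of chromosome 13 (plus strand), encodes kinase eta. Its normalized CPM were 82.8, 67.0 and 71.3 in the IgG IP, against 91.0, 86.9 and 72.5 in the IGF2BP3 IP, with overlapping groups and a log2 fold change of 0.18 (standard error 0.12). In TPM, *DGKH* did not overlap, at 5.07 to 6.59 in the IgG IP and 7.63 to 8.17 in the IGF2BP3 IP. *DGKK*, the type II gene outside the 9 members, had 0 counts in all 6 libraries, which allows up to 0.202 to 0.307 unscaled CPM (3 counts per library, counting error only).

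*DGKE* (ENSG00000153933.10), the type III gene, lies at positions 56834107 to 56869567 of chromosome 17 (plus strand). Its normalized CPM were 66.9, 54.5 and 68.2 in the IgG IP, against 61.8, 61.9 and 59.3 in the IGF2BP3 IP. The IGF2BP3 IP libraries lay inside the IgG IP range, and the log2 fold change was -0.05 (standard error 0.10). *DGKE* rested on 617 to 845 counts per library. On the log2(TPM + 0.1) scale its difference was 0.24. That scale shifted the median of all tested genes by 0.13, against -0.01 on the count scale. The gene overlaps *TRIM25* on the other strand, which had a log2 fold change of 0.12, but their exons share only 80 of the 10925 exonic bases of *DGKE*.

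Of the type I genes, *DGKA* (ENSG00000065357.20), at positions 55927319 to 55954027 of chromosome 12 (plus strand), encodes kinase alpha, which is well known from T cells. Its normalized CPM were 2.17, 3.35 and 2.18 in the IgG IP, against 3.78, 4.15 and 3.58 in the IGF2BP3 IP. Every IGF2BP3 IP library lay above the IgG IP, with a log2 fold change of 0.56 (standard error 0.25) from 20 to 55 counts per library. In TPM the order was lost. *DGKA* stood at 8.06 TPM in IGF2BP3 IP replicate 2, against 2.05 and 2.94 in the other IGF2BP3 IP libraries and 1.93 to 3.67 in the IgG IP. *DGKA* overlaps *PYM1* on the other strand by 353 exonic bases. *PYM1* held 238 to 319 counts per library, more than *DGKA*, and had a log2 fold change of -0.16. Whether the counting used the strand is not given in the sources used here, so reads in that overlap are uncertain.

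*DGKB* (ENSG00000136267.14), at positions 14145049 to 14974777 of chromosome 7 (minus strand), encodes kinase beta, known from brain. Its counts were 7, 48 and 39 in the IgG IP, against 10, 40 and 30 in the IGF2BP3 IP. Both replicate 1 libraries were low, at 0.759 and 0.840 normalized CPM, where the other libraries held 2.44 to 3.22. Replicate number thus separated the *DGKB* values, and the antibody did not. The log2 fold change was -0.22 (standard error 0.54). Leaving out both replicate 1 libraries, a setting added after the data were seen, gave the same value to 2 decimals. *DGKG* (ENSG00000058866.15), at positions 186105668 to 186362234 of chromosome 3 (minus strand), encodes kinase gamma. It had 2, 3 and 3 counts in the IgG IP, against 0, 2 and 3 in the IGF2BP3 IP, at or under the 3 counts that a count of 0 allows. It did not pass the filter on low counts, and no fold is given.

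*DGKQ* (ENSG00000145214.14), the type V gene, lies at positions 958887 to 986895 of chromosome 4 (minus strand). Its counts were 4, 19 and 13 in the IgG IP, against 24, 17 and 15 in the IGF2BP3 IP. In normalized CPM this was 0.434, 1.27 and 1.05 against 2.01, 1.28 and 1.22. The groups overlapped, and the lowest and highest values were both replicate 1 libraries. The log2 fold change of 0.64 (standard error 0.42) followed that pair. Within pairs it was 1.87, 0.01 and 0.19, and without both replicate 1 libraries the log2 fold change was 0.10.

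Of the 9 members, 8 passed the filter on low counts and entered the fit over 14507 genes. Past both thresholds of the study, at least 1.5-fold and a Benjamini-Hochberg adjusted p under 0.05 (here edgeR's quasi-likelihood test), stood 1 member, *DGKZ*. As the family was chosen on this comparison, that count is no test of it. Over all tested genes 1.16% were past them on the higher side and 0% on the lower side, where 0 members stood. The same member, *DGKZ*, passed with the replicate number as a block, where 3.56% of all genes were enriched. At an unadjusted p under 0.05 and 1.5-fold, 1 member was higher and 0 lower, against 3.85% and 0.407% of all genes. The log2 fold changes of the 8 ran from -0.22 to 0.68 with a median of 0.36, and 6 were above 0. Over all tested genes the median was -0.01 and 48.9% were above 0. In 3 of the 8, *DGKA*, *DGKD* and *DGKZ*, the normalized CPM of the groups did not overlap and the IGF2BP3 IP was higher, as in 12% of all tested genes, and the reverse held for 0 of the 8 and 8.69% of all. In TPM *DGKH*, *DGKI* and *DGKZ* had that order, as did 9.64% of all tested genes. Only *DGKZ* had it in both normalized CPM and TPM. The share of all genes with it in both was not computed, so nothing is read from that. By fold alone *DGKQ* and *DGKZ* were at least 1.5-fold higher, as were 5.3% of all genes. *DGKZ* was also the member enriched with DESeq2 (281 genes, 0.963% of 29184) and without a filter beyond 1 count (1.23% of 29184, with 0.00343% lower). The 29184 include genes with low counts, so these shares do not compare with the 1.16% of edgeR (169 genes of 14507). All 281 genes of DESeq2 were among the 14507. With GC correction and replicate block 0 members were enriched (1.89%). Because the comparison had served in choosing the family, nothing is read from these shares.

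**Figure D2:**
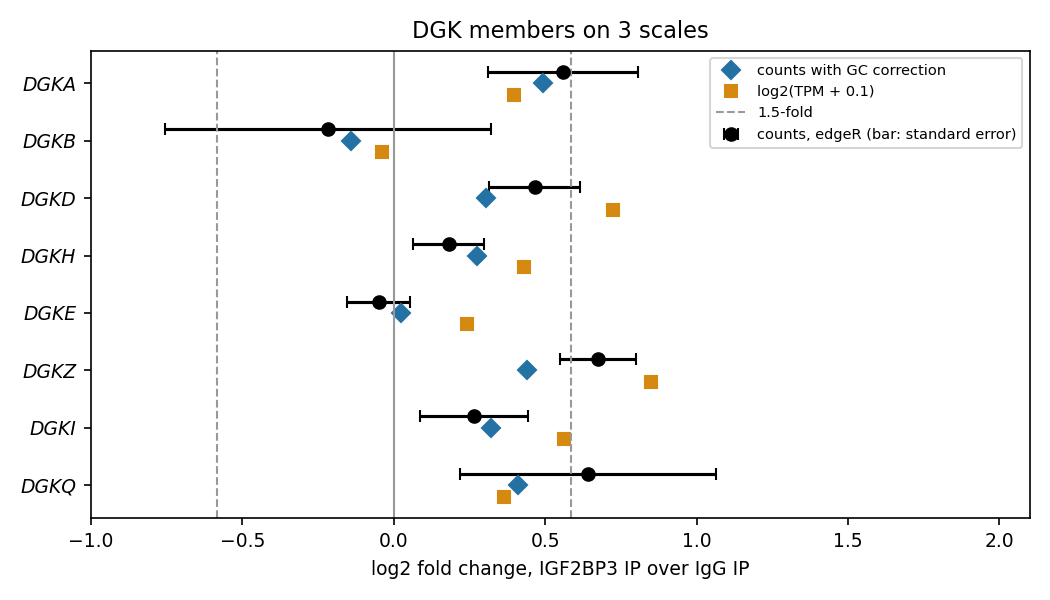
Log2 fold change of IGF2BP3 IP over IgG IP (horizontal axis) for the 8 members that passed the filter. Black points are the edgeR fit on counts with standard error bars, blue diamonds the same counts after correction for GC content, and orange squares log2(TPM + 0.1). *DGKZ* lies at 0.68, 0.44 and 0.85 on these scales, and *DGKE* stays nearest to 0 on the count scales.

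Levels were compared between genes per length only. In TPM, the order in the IgG IP was *DGKE* (13.6 ± 2.48, SD, n = 3), *DGKH* (5.84 ± 0.760), *DGKZ* (4.60 ± 1.199), *DGKA* (2.85 ± 0.875), *DGKD* (2.34 ± 0.934), *DGKI* (1.38 ± 0.320), *DGKB* (0.613 ± 0.430), *DGKQ* (0.237 ± 0.163) and *DGKG* (0.0467 ± 0.0153). *DGKE* stood clear of *DGKH*, and *DGKI* clear of *DGKB*. The other neighbors in that order overlapped in range. In the IGF2BP3 IP *DGKE* (16.0 ± 2.01 TPM, SD, n = 3) again led, and *DGKZ* (8.19 ± 0.286) and *DGKH* (7.87 ± 0.275) stood next with overlapping ranges. Normalized CPM per kb of the canonical transcript put *DGKE* at 7.34 ± 0.873 (SD, n = 3) and *DGKZ* at 4.02 ± 0.0671 in the IgG IP. In the IGF2BP3 IP they were at 7.09 ± 0.167 and 6.43 ± 0.703, with ranges that overlapped there.

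The 9 genes together held 181, 167 and 181 unscaled CPM in the IgG IP, against 215, 209 and 196 in the IGF2BP3 IP. In normalized CPM the sums were 192, 167 and 181 against 215, 207 and 191, and the groups overlapped, with IgG IP replicate 1 just above IGF2BP3 IP replicate 3. *DGKE* and *DGKH*, both long transcripts, made up 69.0% to 78.2% of family counts. Shares of family counts do not depend on scaling between libraries. *DGKZ* made up 7.41% (exact 95% binomial interval 6.24 to 8.74), 8.63% (7.56 to 9.80) and 8.11% (7.02 to 9.32) in the IgG IP. Its share was 12.1% (10.8 to 13.4), 10.3% (9.16 to 11.5) and 11.5% (10.3 to 12.9) in the IGF2BP3 IP. The intervals cover counting error only. *DGKE* moved the other way as a share, from 34.9%, 32.7% and 37.7% to 28.8%, 29.9% and 31.0%. A share can fall because other members gained counts.

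The members differed in transcript composition, which the choice of genes did not use. In GENCODE version 44 the canonical transcript of *DGKZ* has 3588 bases, 31 exons and 65.2% GC, above 96.7% of tested genes or equal to them. *DGKQ* (66.0%) and *DGKD* (57.5%) were also rich in GC, *DGKA* (50.8%) and *DGKG* (49.9%) were nearer the median of 47.7%, and *DGKI* (40.9%), *DGKE* (39.5%), *DGKB* (38.3%) and *DGKH* (38.2%) lay below it. The 4 tested members with the most GC had log2 fold changes of 0.46 to 0.68 and the 4 with the least -0.22 to 0.26. The standard errors reached 0.42 (*DGKQ*) and 0.54 (*DGKB*), and *DGKQ* was at 0.10 without both replicate 1 libraries. As the family was chosen on this comparison, these ranges are a description. Over all tested genes the fold moved with GC. The median log2 fold change was -0.12 in the class with the least GC, of 5 classes of equal size, and 0.18 in the class with the most, and the share past both thresholds was 0.173% and 2.35%. *DGKZ* lay above the median of its own GC class. After a per-library correction for GC content its value was 0.44 on the log2 scale, short of 1.5-fold, and 0.566% of all genes were enriched. That of *DGKQ* was 0.41, of *DGKD* 0.30, of *DGKA* 0.49, of *DGKI* 0.32, of *DGKH* 0.27, of *DGKE* 0.02 and of *DGKB* -0.14. The part of GC content in these folds was not tested.

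**Figure D3:**
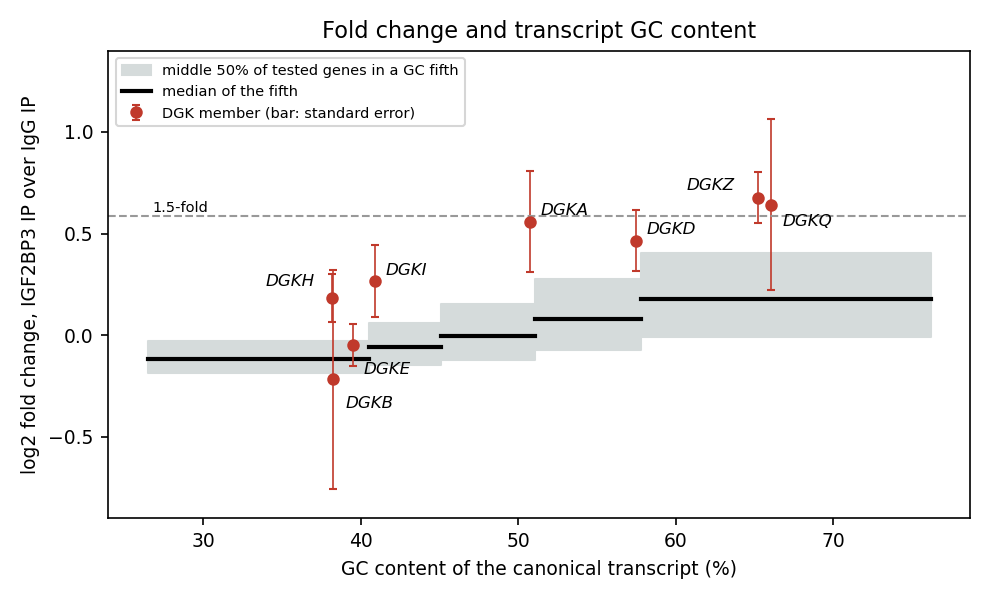
Log2 fold change of IGF2BP3 IP over IgG IP (vertical axis) against GC content of the canonical transcript (horizontal axis, %). Red points are the 8 tested members with standard error bars, black lines the medians of all tested genes in 5 GC classes of equal size and gray bands the quartiles around them. The medians climb from -0.12 to 0.18, and *DGKZ* at 65.2% GC lies at 0.68.

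Sequence elements linked to IGF2BP proteins were counted in the canonical transcripts, on the transcript strand. TGGAC, where T stands for U of the RNA, holds the core of the consensus for m6A, a base modification that IGF2BP proteins were described to read, and the letters CAT followed by any base but G, here CAT elements, were reported for the family. The last base of TGGAC can be the first of a CAT element. *DGKZ* held 8 TGGAC, or 2.23 per kb against a median of 1.08 over tested genes, and 7.53 CAT elements per kb against 10.8. *DGKH* was opposite in both, with 0.400 TGGAC and 13.4 CAT elements per kb, and *DGKI* likewise with 0.668 and 13.4. *DGKE* held 1.28 and 12.0. At least 1 TGGAC was present in 89.4% of the canonical transcripts of tested genes and at least 1 CAT element in 99.6%, so presence alone sets no member apart. These are matches of letters, not binding sites. The following coding stretches of 60 bases each lie within a single exon of their transcript. Each holds the most TGGAC and, among those, the most CAT elements, with both kinds in capitals. Where stretches tied the first was taken, so others of the same transcript may hold as many. The stretches shown come from the GENCODE version 44 transcripts, 5′ to 3′ on the transcript strand.
*DGKZ*, exon 13, chr11:46372774-46372833, plus strand: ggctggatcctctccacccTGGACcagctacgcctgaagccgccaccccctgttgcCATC
*DGKI*, exon 2, chr7:137689900-137689959, minus strand: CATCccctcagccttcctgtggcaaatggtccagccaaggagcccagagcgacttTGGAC
*DGKH*, exon 6, chr13:42159295-42159354, plus strand: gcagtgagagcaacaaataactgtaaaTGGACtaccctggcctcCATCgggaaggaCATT
*DGKE*, exon 8, chr17:56856538-56856597, plus strand: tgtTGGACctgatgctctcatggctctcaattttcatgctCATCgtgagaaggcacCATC
The *DGKZ* and *DGKI* stretches hold 1 of each kind, and those of *DGKH* and *DGKE* hold 1 TGGAC and 2 CAT elements.

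*DGKZ* was higher in the IGF2BP3 IP in all 18 other settings tried, with log2 fold changes from 0.43 to 0.85. With 1 library left out it ran from 0.58 to 0.73, lowest without IGF2BP3 IP replicate 1. Without both replicate 1 libraries the log2 fold change was 0.57. *DGKZ* was past both thresholds in 6 of the 18 settings, where 0% to 3.7% of all genes were enriched. It was past them in 0 of the 6 with 1 library left out, where 0% to 1.64% of all genes were. Few genes of any kind were called in most of those 6, so the 0 says little about *DGKZ*. The settings reuse the same libraries and the family was chosen on this comparison, so the shared direction is no separate support.

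**Figure D4:**
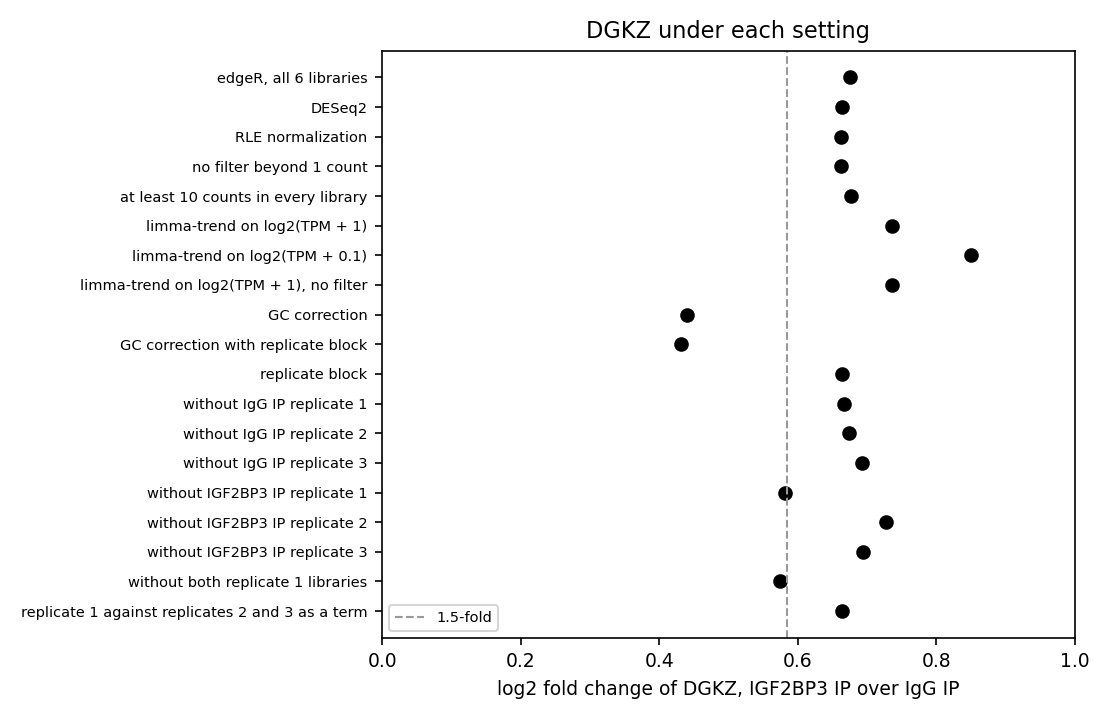
Log2 fold change of *DGKZ* (horizontal axis) in the edgeR fit on all 6 libraries and in 18 other settings (vertical axis). Each point is 1 setting, and the dashed line marks 1.5-fold. All values are above 0, from 0.43 with GC correction and replicate block to 0.85 on log2(TPM + 0.1). *DGKZ* was past both thresholds in 6 of the 18 other settings, where 0% to 3.7% of all genes were enriched.

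Genes that make, use or respond to diacylglycerol and phosphatidic acid were set beside the family. With them were listed 10 phosphoinositide kinases and 4 other lipid kinases with a DGK-type catalytic domain, which were not listed as makers or users. Of the 73 listed genes, here called pathway genes, 52 passed the filter on low counts. *AGPAT1* and *PI4KA* were enriched and 0 were lower in edgeR's quasi-likelihood test, 3.85% of those tested against 1.16% of all genes. At an unadjusted p under 0.05 and 1.5-fold, 7 were higher and 0 lower, against 3.85% and 0.407% of all genes. The median log2 fold change of the 52 was 0.14, with 40 above 0, against -0.01 and 48.9% over all tested genes. With the replicate block 6 were enriched (3.56% of all genes), and with the GC correction 0 (0.566%). The lists too were chosen with earlier results of these data known, so these counts are a description. *AGPAT1* encodes an acyltransferase that makes phosphatidic acid from lysophosphatidic acid. It rose from 31.2 to 47.8 normalized CPM on average, a difference of 0.62 on the log2 scale (standard error 0.11), with an edgeR adjusted p of 0.032. *PI4KA* encodes the phosphatidylinositol 4-kinase that begins the refilling of the phospholipase C substrate at the plasma membrane. It rose from 19.2 to 32.5 normalized CPM a difference of 0.76 on the log2 scale (standard error 0.12), with an edgeR adjusted p of 0.022. Every IGF2BP3 IP library lay above the IgG IP range for both genes, in normalized CPM and in TPM.

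By role, 0 of 7 tested phospholipases C passed. The most abundant were *PLCG1* (25.4 TPM in the IgG IP, log2 fold change 0.14) and *PLCB1* (12.1 TPM, log2 fold change -0.29). On the log2(TPM + 0.1) scale *PLCB1* was at 0.45, the other direction. *PLCD3*, a phospholipase C delta, was at 0.78 with an adjusted p of 0.23 in edgeR and 0.053 with the replicate block, from 14 to 44 counts per library. On the log2(TPM + 0.1) scale it was at -0.61, the other direction. Of 4 phosphatidate phosphatases, which make diacylglycerol, 0 passed, with *PLPP2* at 0.15 and *LPIN1* at 0.07 on the log2 scale. Of 7 other users of diacylglycerol, 0 passed, with *SELENOI* at -0.18 and *CEPT1* at -0.12, both in phospholipid synthesis. *DAGLA*, a lipase that cleaves diacylglycerol to the endocannabinoid 2-arachidonoylglycerol, had the largest difference of all 52 at 1.08 (standard error 0.32). Its adjusted p was 0.18 in edgeR and 0.00041 with the replicate block, from 15 to 93 counts per library.

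Of 20 C1-domain effectors, 9 were tested and 0 passed in edgeR, with 1 enriched with DESeq2. *CHN1*, a Rac GTPase-activating protein (74.5 TPM in the IgG IP), was at 0.23 and *PRKD3*, a protein kinase D, at -0.05 on the log2 scale. *PRKCB*, a classical protein kinase C, was at 0.89 with an adjusted p of 0.068 in edgeR and 0.000102 with the replicate block. With DESeq2, which the study used, its adjusted p was 0.013, and it passed both thresholds. *PRKD2*, at 0.67, went from an adjusted p of 0.24 in edgeR to 0.045 with the replicate block. Of 6 tested makers of phosphatidic acid other than the DGKs, *AGPAT1* passed, and the most abundant, *AGPAT5* and *AGK*, were at -0.08 and 0.04. Of 5 genes that use phosphatidic acid or act in later steps of that route 0 passed, with *CDS2* at 0.11 and *CDIPT* at 0.48. Of 10 phosphoinositide kinases *PI4KA* passed in edgeR, and 2 with DESeq2. *PIP5K1C* was at 0.67 with an adjusted p of 0.083 in edgeR and 0.000102 with the replicate block. With DESeq2 its adjusted p was 0.019, and it passed both thresholds. The most abundant, *PI4K2B* and *PIP5K1A*, were at -0.16 and -0.05. The 4 other lipid kinases with a DGK-type catalytic domain had 0 calls, with *SPHK2* at 0.11 and *CERK* at 0.00. Some differences short of 1.5-fold also had an edgeR adjusted p under 0.05 with the replicate block, in both directions. Of the pathway genes, *PLCB1* (0.029), *SELENOI* (0.025) and *PI4K2B* (0.049) were lower. *CHN1* (0.014), *CDIPT* (0.00081), *PRKCA* (0.00049), *PIP4K2C* (0.00074), *UNC13A* (0.020), *RASGRP1* (0.042) and *PI4KB* (0.045) were higher. Of the members, *DGKD* (0.012) was higher. The share of all genes with such a p is not given here, so nothing is read from these.

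**Figure D5:**
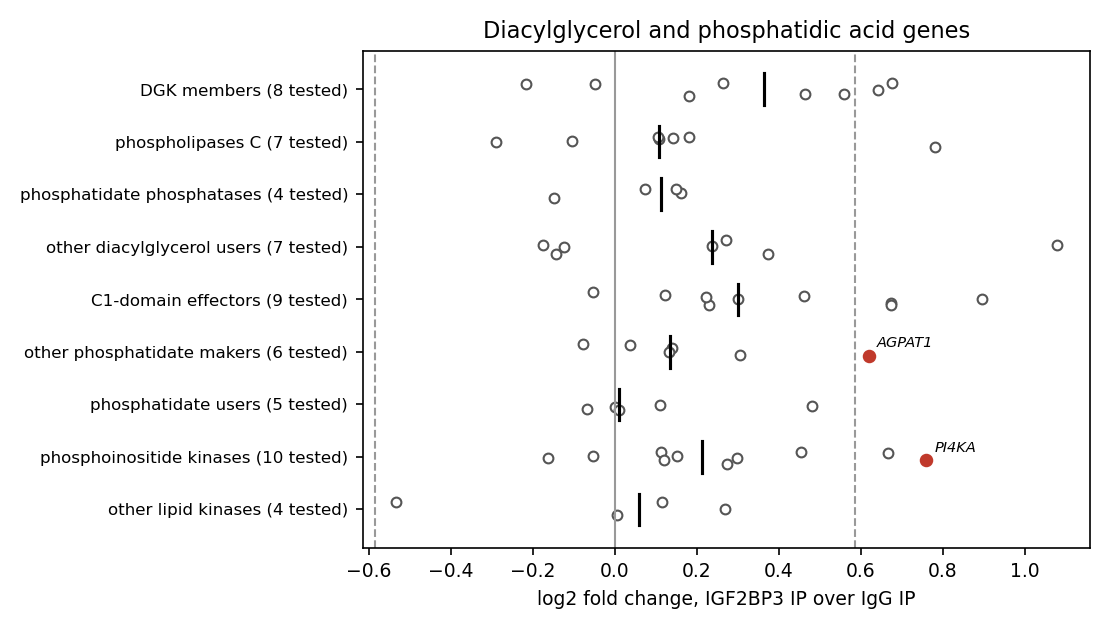
Log2 fold change of IGF2BP3 IP over IgG IP (horizontal axis) for the tested DGK members and the 8 lists of pathway genes (vertical axis). Red points are pathway genes past both thresholds, open points are the other pathway genes and all members, and black bars are list medians. The median is 0.36 for the 8 DGK members and between 0.01 and 0.30 for the other lists. As the family was chosen with this comparison known, its median is a description and is not ranked against the lists.

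Among the genes whose log2 normalized CPM followed *DGKZ* most closely over the 6 libraries were *PPP1R18* (Pearson r = 0.998), *DCAKD* (0.996), *TPD52L2* (0.996) and *GAS2L1* (0.995). Their log2 fold changes were 0.41, 0.78, 0.22 and 1.19. With 6 libraries in 2 groups such likeness is common, and 2.92% of tested genes had an r over 0.9 with *DGKZ*. Among the members, *DGKH* and *DGKI* were most alike (r = 0.942 over the 6 libraries), both with their highest value in IGF2BP3 IP replicate 1. These correlations share the libraries and their depth and are given without a p.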

How the data were processed

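RIP-seq libraries of WaGa cells (3 IgG IP, 3 IGF2BP3 IP) were grouped and numbered from the sample titles. The authors aligned paired-end reads of 150 bp to GRCh38 with STAR 2.7.9a and used RSEM with GENCODE version 37. They deposited whole-number counts per gene, not normalized, and TPM values. The FPKM table was not used. The program behind the counts and its use of strand are not given in the sources used here.

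Counts were filtered with filterByExpr, TMM-normalized and tested over all genes with edgeR 4.0.16 (R 4.3.3), condition as the only term. Genes past 1.5-fold with an adjusted p (Benjamini-Hochberg) under 0.05 were called enriched. Standard errors are the log2 fold change over the root of its F statistic. Alternatives used DESeq2 1.42.0, RLE factors, other filters, limma 3.58.1 with a trend on TPM in log2 form (pseudocounts 1 and 0.1), a loess GC correction (span 0.5), a replicate block, leaving out each library and, added after seeing the data, both replicate 1 libraries or a term for them. The main kinds of fit were run on simulated counts as a check of the code, with limma-trend there on log2(CPM + 1), not TPM. The simulated counts held no replicate or GC effect, so that check says nothing about how the fits handle either. Deviations from group means correlated within same-numbered pairs at 0.57, 0.28 and 0.23, all over 0.1. The numbers were therefore treated as pairs in the within-pair differences and the replicate block, but not in the main fit. Replicate 1 held most of this, and the cross pairs of replicates 2 and 3 reached 0.28 and 0.27. A pairing of replicates 2 and 3 is thus not shown. No source used here says whether libraries of a number share a lysate or replicates are separate cultures, so p-values measure the spread between libraries, which may be technical. No pair of libraries differed by less than sampling noise.

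Coordinates and transcripts are from GENCODE version 44 (GRCh38), which holds 60481 of the 60655 identifiers. The members, lists and tests were chosen with earlier results of these data known. Named genes were the members and *DGKK*, genes overlapping a member, pathway genes past both thresholds, the 2 of highest mean TPM in the IgG IP per pathway list, the 5 genes most correlated with a member past both thresholds (1 is not reported here), and markers. *PLCD3*, *DAGLA*, *PRKCA*, *PRKCB*, *PRKD2*, *UNC13A*, *RASGRP1*, *PI4KB*, *PIP4K2C*, *PIP5K1C* and *DGKZP1* were added after their values were seen.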

Additional observations from a re-analysis of the deposited data

How the results depend on the processing

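Counts of calls are given beside the calls over all genes. In edgeR 1 member, *DGKZ*, and 2 pathway genes were enriched (1.16% of all genes). The limma-trend fits on log2(TPM + 1), with or without the filter, and on log2(TPM + 0.1) called 0 genes of any kind, so their 0 members and 0 pathway genes say nothing about these genes. At an unadjusted p under 0.05 and 1.5-fold each had 1 member and 4 pathway genes. The share of all genes past that cut in these fits is not given here, so nothing is read from these counts. With the GC correction 0 members and 0 pathway genes were enriched (0.566% of all), and with the replicate block added 0 and 3 (1.89%). The replicate block alone gave 1 and 6 (3.56%), and a term for replicate 1 gave 1 and 7 (3.7%). RLE gave 1 and 2 (1.12%) and the 10-count filter 1 and 2 (1.28%). DESeq2 gave 1 and 4 (0.963%) and no filter 1 and 5 (1.23%), both as shares of 29184 genes, low counts included. With libraries left out the members ran from 0 to 0 and the pathway genes from 0 to 6. Omitting replicate 1, 2 or 3 of the IgG IP left 134, 19 and 7 enriched genes in all, with 2, 0 and 0 pathway genes among them. For the IGF2BP3 IP these were 244, 0 and 23, with 3, 0 and 0 pathway genes. Without both replicate 1 libraries 466 genes were called, 6 of them pathway genes. No member was lower in any setting. The causes were not tested. *DGKA* was at 0.82 without IgG IP replicate 2 against 0.56. The sign of *DGKE* changed in 6 of 18 settings and that of *DGKB* in 3 of 17, and the other 6 tested members kept theirs. The counts of *DGKB*, *DGKG* and *DGKQ* limit what can be said of them.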
